A study of Mus musculus with 11 samples.

Results

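The neurofilament and peripherin genes Nefl, Nefm, Nefh, Ina and Prph were examined together with 4 other genes of the growing axon, Gap43, Stmn2, Mapt and Map1b, in 3 types of embryonic mouse motor neurons. Members were taken by name, as all probe sets for which the platform annotation gives a member's symbol as the only symbol. The set of members was chosen with earlier results of these data known. All 9 genes were measured, by 21 of the 34945 probe sets that carry 1 symbol, out of 18193 genes in all. Nefm, Nefh and Gap43 had 1 probe set each and the other 6 genes had several. Where a gene had several, the one with the highest mean over the 11 arrays stands for it.

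RNA came from motor neurons sorted from the spinal cords of C57/BL6 embryos that carried the Hb9::GFP reporter, in which motor neurons are green. No embryonic age is given in the labels used here. Phrenic motor neurons (4 arrays), which innervate the diaphragm, had taken up a rhodamine dextran placed on the phrenic nerve. Lateral motor column neurons (3 arrays, written LMC radial) had taken it up from the radial nerve of the limb, and segments C3-C5 gave green cells without the dextran (4 arrays, written C3-C5 GFP-only). All 3 types thus share the strain and the reporter, while the C3-C5 GFP-only cells differ from both others in lacking the dextran and the LMC radial titles name no segment. Nothing in the labels says that replicates are separate embryos or litters, and the p-values then measure only the spread between arrays, which may be technical.

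Neurofilaments are the intermediate filaments of neurons and fill the axon, where they set its calibre. They are polymers of a light (Nefl), a medium (Nefm) and a heavy (Nefh) subunit, which join alpha-internexin (Ina) in central neurons and peripherin (Prph) in neurons that send axons into peripheral nerves, motor neurons among them. Nefh is known to appear later in development than Nefl and Nefm. Gap43 is a membrane protein of growth cones, Stmn2 (SCG10) a stathmin that binds tubulin in growing axons, and Mapt (tau) and Map1b are microtubule-associated proteins, of which Map1b is known as an early one.

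Values are log2 RMA values, 1 per probe set and array, and a difference of 1 is 2-fold. They are compared between arrays for the same probe set only, since the brightness of different probe sets also reflects their probes. In bulk RNA of sorted cells, fewer cells of a type and less RNA per cell cannot be told apart. Array medians lay between 4.48 and 4.63, and precision is limited by having 3 or 4 arrays per type. Motor neuron genes were measured in all types, with means of 12.3, 12.3 and 12.4 for Slit2, 11.6, 11.6 and 11.3 for Ret and 9.01, 8.14 and 9.07 for Mnx1, the gene behind the reporter, in phrenic, LMC radial and C3-C5 GFP-only neurons in that order. Chat, the acetylcholine-synthesizing enzyme, lay near the array medians in all of them (5.48, 4.92 and 5.69). Phrenic replicate 4 stood apart from its group: the SD of its differences from the mean of the other phrenic arrays, over all probe sets, was 0.597, against 0.257 to 0.455 for the other 10 arrays in their own groups. Its array means were also the highest of all 11 for the marker lists of mesenchyme (6.99), neural progenitors and glia (6.66), Schwann and neural crest cells (5.87) and interneurons (5.68). The same held for the list of neuronal maturation markers (9.65). Its motor neuron list mean (8.63) was the highest of the phrenic arrays, which began at 8.43. Values without it are given for each difference that it moved by over 1.5 times on the probe set that represents a member, not for the other probe sets.

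None of the 9 genes passed the test in any comparison of 2 cell types (limma, Benjamini-Hochberg adjusted p over all 45037 probe sets). Of all genes, each represented by 1 probe set, 6.88% passed for phrenic against LMC radial, 2.74% for phrenic against C3-C5 GFP-only and 3.73% for LMC radial against C3-C5 GFP-only. At an unadjusted p under 0.05, 2 of the 9 passed in each comparison with phrenic neurons, Nefh and Prph both times, and 0 passed for LMC radial against C3-C5 GFP-only. Of all 18193 genes, 4080 passed at that level for phrenic against LMC radial and 2741 for phrenic against C3-C5 GFP-only. For LMC radial against C3-C5 GFP-only 3465 did. The 3 type means of a gene spanned between 0.079 (Ina) and 0.49 (Nefh), and in Map1b that span lay below the SD within types. On the representing probe sets, the 95% intervals of all 3 differences stayed within 2-fold in either direction for 8 of the 9 genes, and within 1.5-fold for 6. Map1b was the exception to the first, with an interval reaching 2.03-fold. On other probe sets intervals also went beyond 2-fold for Prph (up to 1.20 on 1449796_at), Mapt (up to 1.25 on 1424719_a_at) and Map1b (down to -2.50 on 1421850_at). A missed threshold does not show that the types express these genes alike, and the intervals below bound each difference.

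**Figure D1:**
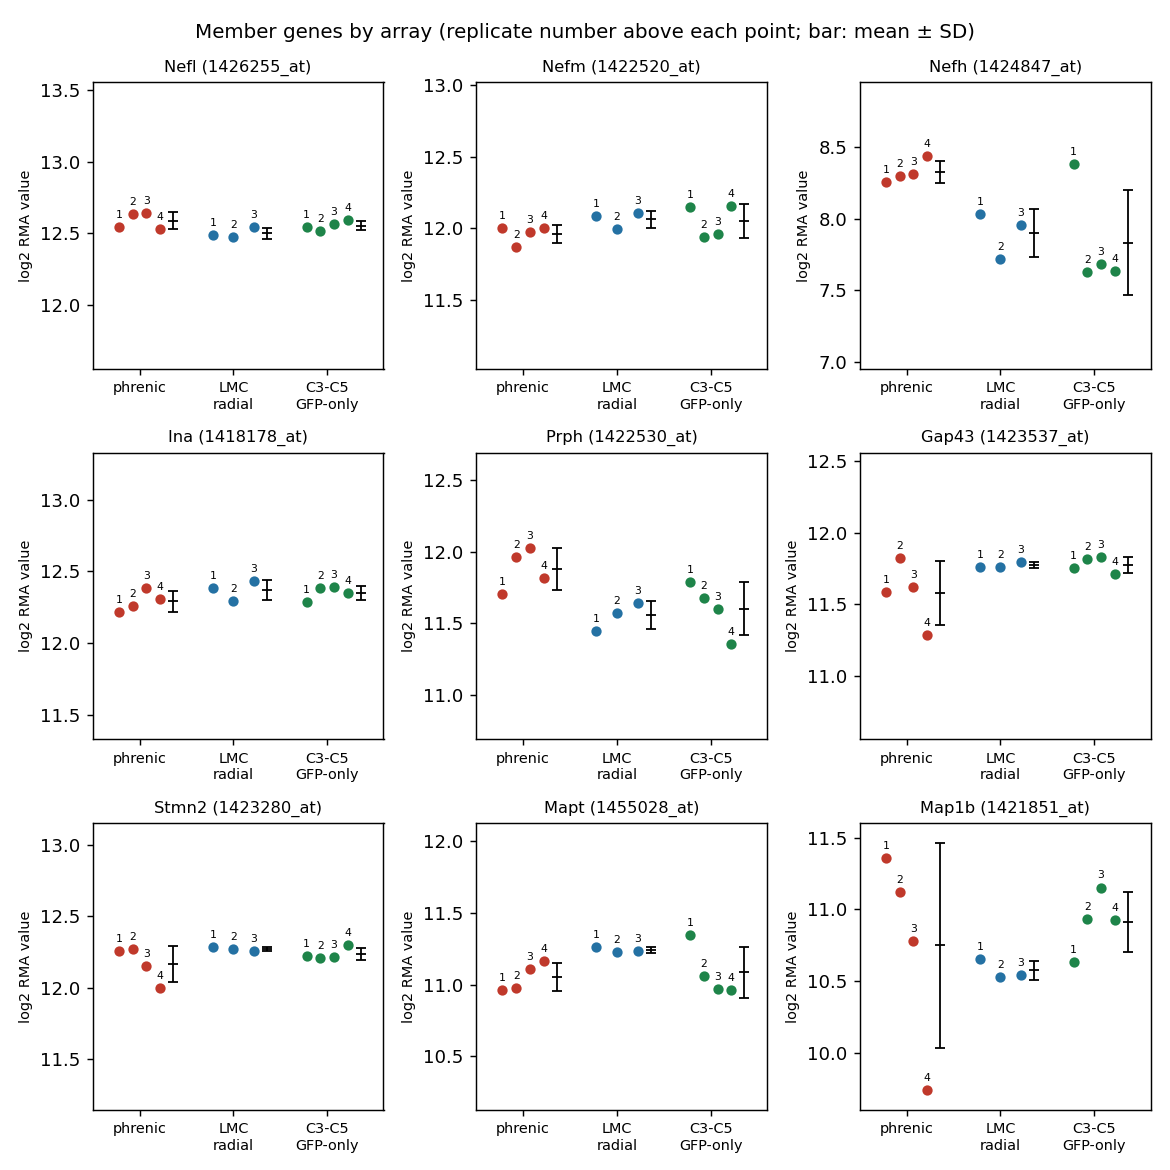
Log2 RMA value of the probe set that represents each of the 9 genes, by array. Points are arrays with their replicate number, bars are the mean ± SD of a type, and each panel spans 2 log2 units, so that the tight Nefl, Nefm, Ina and Stmn2 panels can be set beside the wider Nefh and Map1b panels.

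The light subunit Nefl had values of 12.54, 12.63, 12.64 and 12.53 in phrenic neurons, 12.49, 12.47 and 12.54 in LMC radial neurons and 12.54, 12.51, 12.56 and 12.59 in C3-C5 GFP-only neurons. All 11 arrays lay between 12.47 and 12.64, and the groups overlapped. Phrenic neurons differed from LMC radial neurons by 0.085 ± 0.088 (difference ± SE, adjusted p = 0.615), with a 95% interval from -0.11 to 0.28. For phrenic against C3-C5 GFP-only neurons the difference was 0.033 (0.052 without phrenic replicate 4), the interval ran from -0.15 to 0.21, and for LMC radial against C3-C5 GFP-only neurons from -0.25 to 0.14. No bound of these 3 intervals exceeded 1.21-fold.

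The medium subunit Nefm is encoded next to Nefl, with 1 pseudogene between them in the order of the RefSeq annotation (GRCm38.p6). It had 12.00, 11.87, 11.97 and 12.00 in phrenic neurons, 12.09, 12.00 and 12.11 in LMC radial neurons and 12.15, 11.94, 11.96 and 12.16 in C3-C5 GFP-only neurons. The groups overlapped, with C3-C5 GFP-only replicates 2 and 3 below replicates 1 and 4 of that type. The differences were -0.10 ± 0.10 for phrenic against LMC radial (adjusted p = 0.591), -0.092 ± 0.093 for phrenic against C3-C5 GFP-only (adjusted p = 0.787) and 0.011 ± 0.10 for LMC radial against C3-C5 GFP-only (adjusted p = 0.967). The widest bound of the 3 intervals was 1.25-fold.

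The heavy subunit Nefh had the largest span of type means. It had 8.25, 8.30, 8.31 and 8.44 in phrenic neurons, 8.03, 7.72 and 7.95 in LMC radial neurons and 8.38, 7.63, 7.68 and 7.64 in C3-C5 GFP-only neurons. Every phrenic array lay above every LMC radial array, and above 3 of the 4 C3-C5 GFP-only arrays. C3-C5 GFP-only replicate 1 was the exception, at a level within the phrenic range. The means were 8.32 ± 0.08 (SD, n = 4) in phrenic, 7.90 ± 0.17 (n = 3) in LMC radial and 7.83 ± 0.37 (SD over 4 arrays) in C3-C5 GFP-only neurons.

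Nefh differed by 0.42 ± 0.18 between phrenic and LMC radial neurons (adjusted p = 0.193, interval 0.029 to 0.82) and by 0.49 ± 0.17 between phrenic and C3-C5 GFP-only neurons (adjusted p = 0.203, interval 0.13 to 0.86), and neither passed. The difference between LMC radial and C3-C5 GFP-only neurons was 0.068 ± 0.18 (adjusted p = 0.869), and 0.25 without C3-C5 GFP-only replicate 1 (adjusted p = 0.261). With C3-C5 GFP-only replicate 1 left out, phrenic neurons were higher than C3-C5 GFP-only neurons by 0.67 and passed (adjusted p = 0.0162), and Nefh was then the 1 member called. Over the 24 alternatives fixed for this comparison its adjusted p lay between 0.0162 and 0.746, and it passed in that 1 alone. Without phrenic replicate 4 the difference was 0.45 (adjusted p = 0.280). Among the C3-C5 GFP-only arrays replicate 1 had the lowest mesenchyme (4.39) and interneuron (4.31) list means. Its sensory neuron list mean was 5.35, against 5.41, 5.31 and 5.54 in replicates 2, 3 and 4. Whether other cells had a part in its Nefh value was not tested.

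Ina, alpha-internexin, had 12.22, 12.26, 12.38 and 12.31 in phrenic neurons, 12.38, 12.29 and 12.43 in LMC radial neurons and 12.28, 12.38, 12.39 and 12.35 in C3-C5 GFP-only neurons on the probe set that represents it. These groups overlapped, and the largest of the 3 differences was -0.079 ± 0.093 for phrenic against LMC radial (adjusted p = 0.664). Its other probe sets gave another picture. Probe set 1448992_at had 10.49, 10.56, 10.51 and 10.34 in phrenic neurons, 10.69, 10.77 and 10.78 in LMC radial neurons and 11.03, 10.93, 10.88 and 10.96 in C3-C5 GFP-only neurons. The 3 groups did not overlap and stood in the order phrenic, LMC radial, C3-C5 GFP-only from low to high. On this probe set phrenic neurons were lower than C3-C5 GFP-only neurons by 1.39-fold (-0.47 ± 0.089, adjusted p = 0.0211). The difference of -0.27 ± 0.096 for phrenic against LMC radial (adjusted p = 0.124) and that of -0.20 ± 0.096 for LMC radial against C3-C5 GFP-only (adjusted p = 0.270) did not pass.

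Probe set 1448991_a_at gave the same order, with means of 10.90 ± 0.05 (SD, n = 4) in phrenic, 11.04 ± 0.05 (n = 3) in LMC radial and 11.25 ± 0.10 (over 4 arrays) in C3-C5 GFP-only neurons. Its difference for phrenic against C3-C5 GFP-only, -0.35 ± 0.088, did not pass (adjusted p = 0.0822). All 3 probe sets of Ina carry the same accession, so they were designed on 1 sequence record. Probe set 1448992_at was the 1 called among 21 for phrenic against C3-C5 GFP-only (4.76%), where 1.96% of all probe sets were called. For phrenic against LMC radial 0 of 21 were called, beside 6.61% of all probe sets, and for LMC radial against C3-C5 GFP-only 0 of 21, beside 3.76%. The call on 1448992_at was lost when any 1 of the 4 C3-C5 GFP-only arrays was left out (adjusted p between 0.0527 and 0.0641), with replicate number as a block (adjusted p = 0.0547), in a fit of these 2 types only (adjusted p = 0.0602), within the 7 arrays of higher 25th percentile (-0.58, adjusted p = 0.162) and with the mesenchyme list as a covariate (-0.34, adjusted p = 0.590). It was also lost with phrenic replicate 4 and C3-C5 GFP-only replicate 1 both left out (-0.40, adjusted p = 0.0822). It held with phrenic replicate 4 alone left out (-0.43, adjusted p = 0.0360). The array mean of the mesenchyme list was 5.48 to 6.99 in phrenic and 4.39 to 4.87 in C3-C5 GFP-only arrays.

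**Figure D2:**
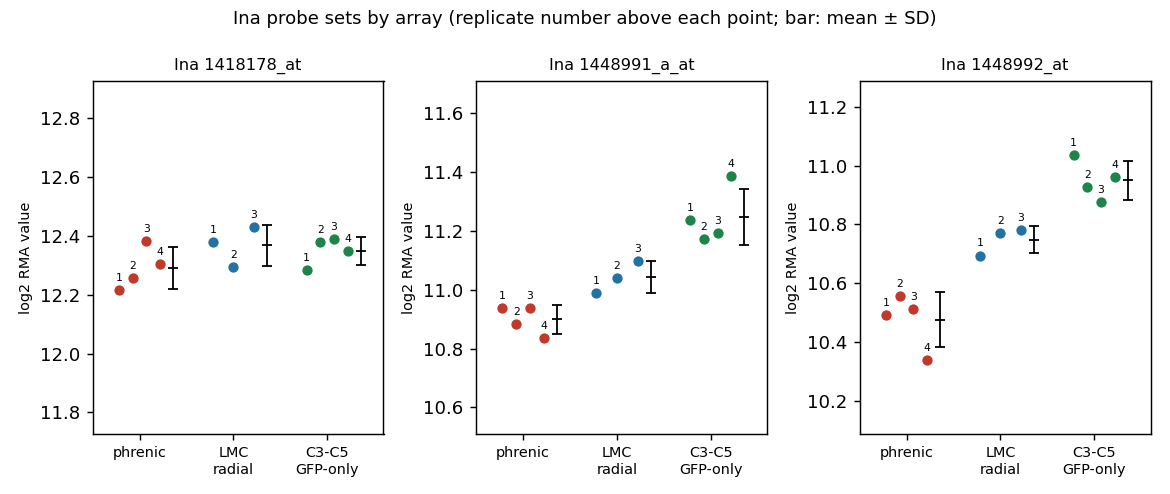
Log2 RMA value of the 3 probe sets of Ina by array, with replicate numbers and the mean ± SD of each type. The groups overlap on 1418178_at, which represents the gene, and do not overlap on 1448992_at, where phrenic arrays reach 10.56 at most and C3-C5 GFP-only arrays 10.88 at least.

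Peripherin, Prph, had 11.71, 11.96, 12.03 and 11.82 in phrenic neurons, 11.45, 11.57 and 11.64 in LMC radial neurons and 11.79, 11.67, 11.60 and 11.35 in C3-C5 GFP-only neurons. Every phrenic array lay above every LMC radial array, while the lowest phrenic array lay below the highest C3-C5 GFP-only array. The differences were 0.32 ± 0.13 for phrenic against LMC radial (adjusted p = 0.170, interval 0.039 to 0.61) and 0.28 ± 0.12 for phrenic against C3-C5 GFP-only (adjusted p = 0.355, interval 0.013 to 0.54). For LMC radial against C3-C5 GFP-only the difference was -0.047 ± 0.13 (adjusted p = 0.874). The other 3 probe sets of Prph, dimmer and more variable, differed by 0.58, 0.40 and 0.081 for phrenic against LMC radial and by 0.44, 0.44 and 0.13 for phrenic against C3-C5 GFP-only, and none passed. No alternative among 25 brought the representing probe set past the threshold in any comparison of types. Its sign held in all 25 for both comparisons with phrenic neurons. Among them was a fit with the 3′ minus 5′ difference between control probe sets for Actb, which reflects RNA integrity, as a covariate. In that fit the representing probe set differed by 0.18 for phrenic against LMC radial (adjusted p = 0.641), and the others by 0.10, -0.12 and -0.022. For phrenic against C3-C5 GFP-only the values were 0.24 (adjusted p = 0.373), 0.31, 0.30 and 0.098.

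**Figure D3:**
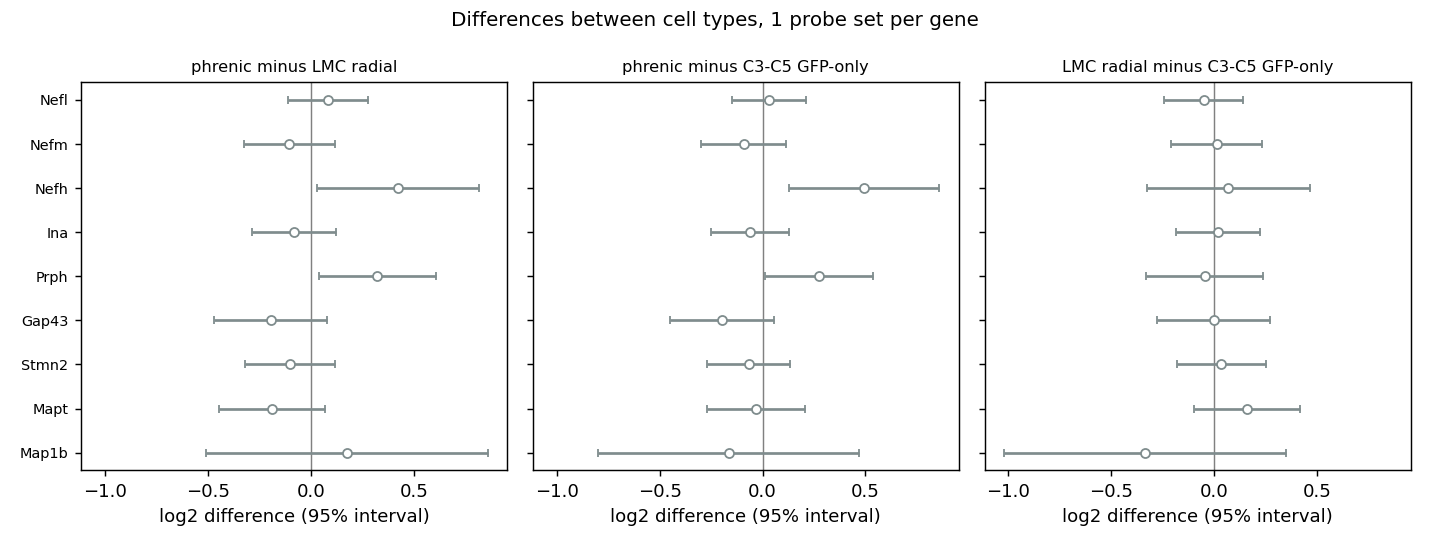
Log2 differences between cell types for the 9 genes, with 95% intervals, in the 3 pairwise comparisons. Nefh and Prph lie to the right of 0 in both comparisons with phrenic neurons, none passed the test, and Map1b has the widest intervals.

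The growth-cone gene Gap43 had 11.59, 11.82, 11.62 and 11.28 in phrenic neurons, 11.76, 11.76 and 11.80 in LMC radial neurons and 11.75, 11.82, 11.83 and 11.71 in C3-C5 GFP-only neurons. Phrenic arrays spread from 11.28 in replicate 4 to 11.82 in replicate 2, while the other types were tight, and the groups overlapped. The difference was -0.19 ± 0.12 for phrenic against LMC radial (adjusted p = 0.388) and -0.20 ± 0.11 for phrenic against C3-C5 GFP-only (adjusted p = 0.538). Without phrenic replicate 4 these became -0.096 (adjusted p = 0.598) and -0.100 (adjusted p = 0.757). LMC radial and C3-C5 GFP-only neurons differed by -0.0035 ± 0.12 (adjusted p = 0.992, interval -0.28 to 0.27).

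Stmn2 had 12.26, 12.27, 12.15 and 12.00 in phrenic neurons, 12.28, 12.27 and 12.26 in LMC radial neurons and 12.22, 12.21, 12.21 and 12.30 in C3-C5 GFP-only neurons. The groups overlapped, and phrenic replicate 4 was again the lowest array. The differences were -0.10 ± 0.099 for phrenic against LMC radial (adjusted p = 0.593), -0.067 ± 0.091 for phrenic against C3-C5 GFP-only (adjusted p = 0.858) and 0.034 ± 0.099 for LMC radial against C3-C5 GFP-only (adjusted p = 0.883), and no interval reached beyond 1.25-fold. Without phrenic replicate 4 the first became -0.044 (adjusted p = 0.807) and the second -0.0099 (adjusted p = 0.984). Its second probe set differed by -0.15, -0.030 and 0.12 in the same comparisons, and none passed.

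Mapt, tau, had 10.96, 10.98, 11.11 and 11.17 in phrenic neurons, 11.27, 11.23 and 11.24 in LMC radial neurons and 11.35, 11.06, 10.97 and 10.96 in C3-C5 GFP-only neurons. Every phrenic array lay below every LMC radial array, and C3-C5 GFP-only arrays spread across both. The difference of -0.19 ± 0.12 for phrenic against LMC radial did not pass (adjusted p = 0.373, interval -0.45 to 0.068), nor did 0.16 ± 0.12 for LMC radial against C3-C5 GFP-only (adjusted p = 0.487) or -0.032 ± 0.11 for phrenic against C3-C5 GFP-only (adjusted p = 0.953). The last was -0.069 without phrenic replicate 4 (adjusted p = 0.879) and took the other sign, 0.055, without C3-C5 GFP-only replicate 1 (adjusted p = 0.893), which also moved the difference for LMC radial against C3-C5 GFP-only to 0.24 (adjusted p = 0.224). Another probe set of Mapt, 1424719_a_at, varied far more, with 10.25, 9.65, 8.83 and 9.61 in phrenic neurons, 9.90 to 10.14 in LMC radial neurons and 10.22, 8.99, 9.19 and 9.57 in C3-C5 GFP-only neurons. The 3 lowest of these, phrenic replicate 3 and C3-C5 GFP-only replicates 2 and 3, had 3′ minus 5′ differences between control probe sets for Actb, which reflect RNA integrity, of 2.15, 1.98 and 1.79. Phrenic replicate 1, C3-C5 GFP-only replicate 1 and the 3 LMC radial arrays, the 5 highest, had Actb differences of 1.05, 1.29 and 1.01 to 1.12. In between, phrenic replicates 2 and 4 had 1.71 and 1.96, but C3-C5 GFP-only replicate 4 had 1.07. On this probe set the differences were -0.42 for phrenic against LMC radial, 0.094 for phrenic against C3-C5 GFP-only and 0.52 for LMC radial against C3-C5 GFP-only. With the Actb difference as a covariate they were 0.25 (adjusted p = 0.720), 0.28 (adjusted p = 0.579) and 0.030 (adjusted p = 0.973). The first thus took the other sign, and none passed either way. Since the LMC radial arrays had Actb differences of 1.01 to 1.12 only, this covariate cannot be fully told apart from cell type in comparisons with them. A part of RNA integrity in these differences was not tested. On the probe set that represents Mapt the same fit gave -0.22, -0.041 and 0.18, close to the values without the covariate.

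Map1b had 11.36, 11.12, 10.78 and 9.74 in phrenic neurons, 10.65, 10.53 and 10.54 in LMC radial neurons and 10.64, 10.93, 11.15 and 10.93 in C3-C5 GFP-only neurons. Phrenic arrays held both the highest and the lowest value of all 11. The differences were 0.17 ± 0.31 for phrenic against LMC radial (adjusted p = 0.789), -0.16 ± 0.29 for phrenic against C3-C5 GFP-only (adjusted p = 0.896) and -0.34 ± 0.31 for LMC radial against C3-C5 GFP-only (adjusted p = 0.584). Without phrenic replicate 4 the difference for phrenic against LMC radial became 0.51 (adjusted p = 0.0870) and that for phrenic against C3-C5 GFP-only 0.17 (adjusted p = 0.728), so that the second changed its sign.

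Of the 3 probe sets of Map1b, which share 1 accession, the representing one and the dim 1421850_at were both lowest in phrenic replicate 4 and in C3-C5 GFP-only replicate 1 of their types, while 1450397_at was highest in both arrays. In phrenic replicate 4 the representing probe set was at its lowest, 9.74, while 1450397_at was at 11.03, the highest of the phrenic arrays (10.53, 10.82 and 10.64 in replicates 1 to 3). The dim probe set 1421850_at was at 2.82 there, and at 6.41, 6.16 and 5.55 in the other phrenic arrays. In C3-C5 GFP-only replicate 1 the representing probe set was likewise the lowest of its group (10.64), as was 1421850_at (5.02, others 5.51 to 6.05), and 1450397_at was the highest (11.25, others 10.49 to 10.70). On 1450397_at the means were 10.76 ± 0.22 (SD, n = 4) in phrenic, 10.15 ± 0.41 (n = 3) in LMC radial and 10.74 ± 0.35 (over 4 arrays) in C3-C5 GFP-only neurons, and the difference of 0.60 ± 0.23 for phrenic against LMC radial did not pass (adjusted p = 0.151).

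**Figure D4:**
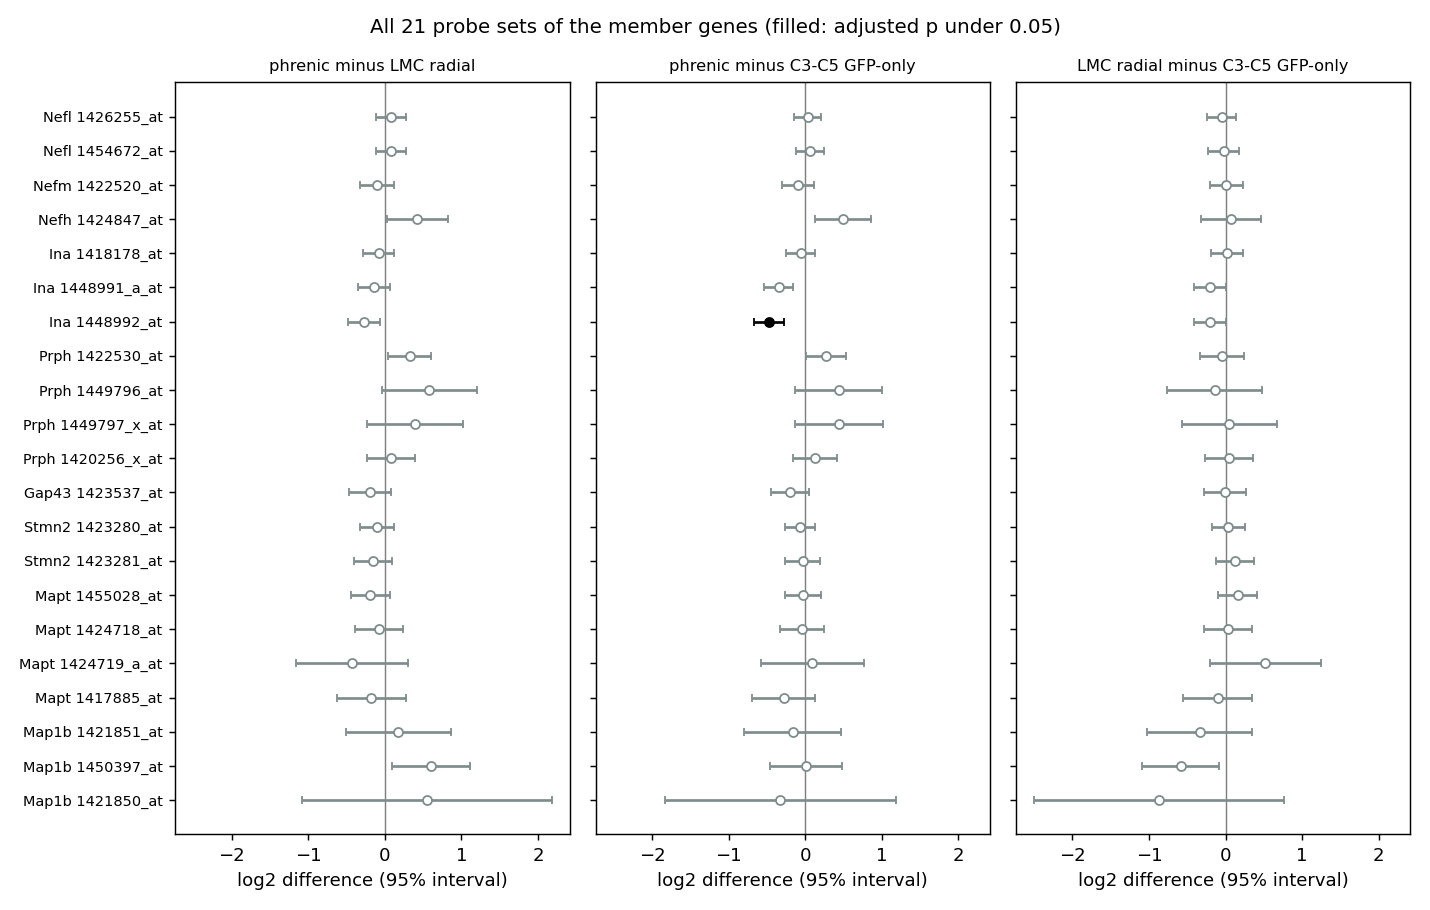
Log2 differences with 95% intervals for all 21 probe sets of the 9 genes in the 3 pairwise comparisons. The single filled point, Ina 1448992_at for phrenic minus C3-C5 GFP-only, has an adjusted p under 0.05.

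In the order of levels across types, phrenic neurons were highest for Nefl, Nefh and Prph and lowest for Nefm, Ina, Gap43, Stmn2 and Mapt, by the means of the representing probe sets (for Mapt, C3-C5 GFP-only neurons were lowest without C3-C5 GFP-only replicate 1). Map1b was highest in C3-C5 GFP-only and lowest in LMC radial neurons (without phrenic replicate 4, phrenic neurons were highest). No pair of neighbours in any of these orders differed beyond the test's threshold. The arrays of phrenic and LMC radial neurons did not overlap for 3 of the 9 genes (33.3%), above for Nefh and Prph and below for Mapt, where 19.3% of all genes did not overlap. For phrenic against C3-C5 GFP-only neurons 0 of 9 did not overlap, beside 9.29% of all genes, and for LMC radial against C3-C5 GFP-only neurons 0 of 9, beside 22.9%. The median absolute difference of the 9 genes was 0.175 for phrenic against LMC radial, 0.0917 for phrenic against C3-C5 GFP-only and 0.0473 for LMC radial against C3-C5 GFP-only. Over all genes it was 0.205, 0.144 and 0.196 in the same order. Over the 5263 genes with a mean at or above that of the lowest member it was 0.168, 0.158 and 0.140. The median of the 9 genes was thus slightly above that of genes this bright for phrenic against LMC radial, and below it in the other comparisons.

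Each type was also compared with the mean of the other 2, since the series sets single types against overall expression. Again 0 of the 9 genes passed, while 4.86% of all genes passed for phrenic, 7.07% for LMC radial and 1.2% for C3-C5 GFP-only neurons. At an unadjusted p under 0.05 there were 2, 0 and 0, beside 3478, 4052 and 2790 of all 18193 genes. Of the probe sets that do not represent a gene, Ina 1448992_at was called here too, lower in phrenic neurons than in the mean of the others (-0.37 ± 0.079, adjusted p = 0.0253). These contrasts use the same arrays as the pairwise ones and are no separate evidence.

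**Figure D5:**
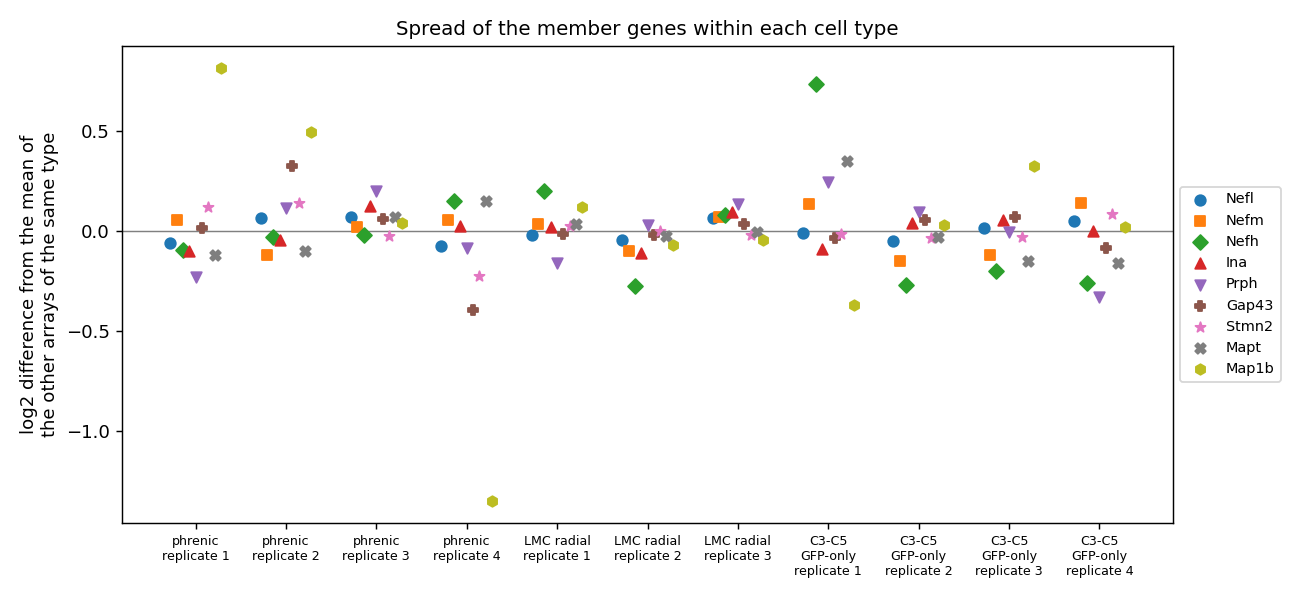
Log2 difference of each array from the mean of the other arrays of its type, for the probe set that represents each of the 9 genes. Phrenic replicate 4 is low for Map1b, Gap43 and Stmn2, and C3-C5 GFP-only replicate 1 is high for Nefh, at 0.73.

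Few genes of the same processes passed. Across 7 lists of cytoskeletal and axonal genes, 107 genes were measured, and 2 of them (1.87%) passed in each pairwise comparison, beside the shares of all genes given above. For phrenic against LMC radial the 2 were Map9, a microtubule-associated protein (0.77 ± 0.19, adjusted p = 0.0357), and Klf7, a transcription factor known from axon growth (-0.79 ± 0.15, adjusted p = 0.0105). Klf7 had 11.005, 10.99, 10.95 and 10.88 in phrenic neurons and 11.65, 11.78 and 11.83 in LMC radial neurons, without overlap. For phrenic against C3-C5 GFP-only they were Prkcb, a kinase of the family that phosphorylates Gap43 (-0.89 ± 0.17, adjusted p = 0.0219), and Tubd1, delta-tubulin (-0.74 ± 0.16, adjusted p = 0.0393), whose means of 4.75 and 5.49 lie near the array medians. For LMC radial against C3-C5 GFP-only they were Tppp3, which binds microtubules (0.97 ± 0.23, adjusted p = 0.0442), and Tubg1, gamma-tubulin (-0.74 ± 0.17, adjusted p = 0.0378).

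By list, 0 of 13 other intermediate filament genes, among them Vim, Nes and the lamins, passed in any pairwise comparison. The same held for 0 of 8 other stathmins and collapsin response mediators and for 0 of 10 RNA-binding proteins known to bind member transcripts. The lists of cytolinkers and neurofilament turnover (17 genes), other microtubule-associated proteins (26), tubulins (14) and growth-associated genes (19) make up the rest. Among the cytolinkers 0 passed pairwise, but Plec, plectin, which ties intermediate filaments to other structures, was higher in phrenic neurons than in the mean of the other types (0.58 ± 0.13, adjusted p = 0.0283). It had 9.64, 9.94, 10.32 and 10.07 in phrenic neurons, against 9.42, 9.55 and 9.35 in LMC radial and 9.55, 9.38, 9.35 and 9.24 in C3-C5 GFP-only neurons, without overlap. That comparison also called Map9 (0.77 ± 0.16) as higher and Tubd1 (-0.65 ± 0.14) and Klf7 (-0.65 ± 0.12) as lower. Against the mean of the others Klf7 was higher (0.54 ± 0.13) and Prkca lower (-0.72 ± 0.18) in LMC radial neurons, and Prkcb was higher in C3-C5 GFP-only neurons (0.74 ± 0.15). Klf7 in both comparisons of phrenic neurons passed whichever array was left out, while each of the other calls on these lists was lost without at least 1 array. Without phrenic replicate 4, Plec (0.56, adjusted p = 0.0501) and Tubd1, against C3-C5 GFP-only (-0.70, adjusted p = 0.0636) and against the mean of the others (-0.61, adjusted p = 0.0501), no longer passed, and the pairwise counts became 3 higher and 1 lower for phrenic against LMC radial, 2 and 1 for phrenic against C3-C5 GFP-only and 1 and 3 for LMC radial against C3-C5 GFP-only. With replicate number as a block Tubd1 did not pass for phrenic against C3-C5 GFP-only (adjusted p = 0.0642). Nor did Plec (adjusted p = 0.0657). Single-type calls on Klf7 and Prkca in LMC radial and Prkcb in C3-C5 GFP-only neurons were also lost (adjusted p between 0.0558 and 0.0761). With the array set (defined below) as a block, 0 of the 107 genes passed for LMC radial against C3-C5 GFP-only. Tppp3 then had an adjusted p of 0.119 and Tubg1 of 0.109. Map9 for phrenic against LMC radial was lost too (adjusted p = 0.0703). So were the calls in LMC radial neurons on Klf7 (adjusted p = 0.118) and Prkca (adjusted p = 0.0919). The other calls on these lists held. All LMC radial arrays lie in 1 set, so set and type cannot be fully told apart there.

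On the same arrays the markers of motor neuron columns differed widely. Of 13 motor neuron genes, 2 were higher and 2 lower in phrenic than in LMC radial neurons (30.8%): Isl1 (2.69 ± 0.45) and Mnx1 (0.87 ± 0.11) against Gfra1 (-2.02 ± 0.22) and Foxp1 (-1.22 ± 0.14). In phrenic neurons 6 were lower and 0 higher than in C3-C5 GFP-only neurons, led by Lhx3 (-4.90 ± 0.47), Lhx4 (-3.22 ± 0.32), Foxp1 (-0.89 ± 0.13) and Gfra1 (-1.33 ± 0.20). In LMC radial neurons 6 were lower and 0 higher than in C3-C5 GFP-only neurons, led by Lhx3 (-6.16 ± 0.51), Lhx4 (-3.52 ± 0.35), Mnx1 (-0.93 ± 0.11) and Isl2 (-1.05 ± 0.18). Of the neuronal maturation genes, Neurod1 was lower in phrenic (-1.20 ± 0.25) and in LMC radial (-1.74 ± 0.27) than in C3-C5 GFP-only neurons, and the other 12 measured genes did not pass in a pairwise comparison.

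Markers of other cells varied between arrays of a type as well as between types. For phrenic against LMC radial 0 of the mesenchyme and 0 of the progenitor and glial markers passed, and the array means of these lists overlapped. The array mean of 14 mesenchyme markers, 4 of which had means under 5 in all types, was 5.48 to 6.99 in phrenic, 4.83 to 6.15 in LMC radial and 4.39 to 4.87 in C3-C5 GFP-only arrays, and Foxc1 (2.15 ± 0.38), Col5a2 (1.42 ± 0.26) and Postn (1.35 ± 0.28) were higher in phrenic than in C3-C5 GFP-only neurons. Of 12 progenitor and glial markers Slc1a3 was higher in phrenic than in C3-C5 GFP-only neurons (1.73 ± 0.38). The list means of these markers were 5.14 to 6.66, 5.39 to 5.73 and 5.05 to 5.24 in phrenic, LMC radial and C3-C5 GFP-only arrays. For 6 Schwann and neural crest markers the means were 4.15 to 5.87, 4.37 to 4.95 and 4.35 to 4.46 in the same order, and 0 passed in a pairwise comparison. Sensory neurons, which also express Prph and Nefh, had 11 measured markers with list means of 5.14 to 5.35, 5.30 to 5.51 and 5.31 to 5.54. Of these 11 markers, 5 had means below 5 in all types, and Trpv1 alone passed, higher in LMC radial than in C3-C5 GFP-only (0.93 ± 0.15) and lower in phrenic than in LMC radial neurons (-0.86 ± 0.15), with means under 5 throughout. Of 11 interneuron markers Gata3 passed in the same directions, 0.59 ± 0.14 and -0.80 ± 0.14, also with means under 5, and the list means were 4.51 to 5.68, 4.25 to 4.88 and 4.31 to 4.54. The part of other cells in the values of the 9 genes was not tested. In the fit with the mesenchyme list as a covariate none of the 9 passed, but none passed without it. The means of that list also do not overlap between phrenic and C3-C5 GFP-only arrays, so the fit cannot tell list and cell type fully apart.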

How the data were processed

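RNA of sorted embryonic motor neurons was measured on 11 Affymetrix arrays. The deposited values are log2 values made by the authors with RMA, per the submitters' processing notes (background correction, quantile normalization and summary of probes per set; version not given in the sources used here). Per the labels' protocols, biotinylated cRNA was made from 6 ug of total RNA. The table holds 45101 probe sets, of which 64 controls served only for 3′ to 5′ differences. Probe sets were named through the platform annotation: 34945 had 1 symbol, 932 several and 9160 none.

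A mean per cell type was fitted with limma 3.58.1 (R 4.3.3) on 45037 probe sets with no other filter (8 residual and 2.92 prior degrees of freedom, moderated two-sided tests). The p-values were adjusted by Benjamini-Hochberg over all probe sets within each of 6 comparisons, with a threshold of 0.05. Intervals are 95%, from the same fit. The fit was checked on simulated data. The members and the gene lists were chosen with earlier results of these data known. Named genes are all 9 members and, per list, up to 4 called genes with the smallest p. The search for genes with a pattern like that of a called member gave none, since no member was called. Of 215 listed entries 196 were matched; the rest are not analysed here. Alternatives changed normalization, filter, floor, prior, weights, blocks, covariates, probe set summary and arrays; arrays were split into 2 sets at the largest gap between their 25th percentiles. Deviations from the type means were correlated between arrays to check whether replicate numbers pair them. All 4 same-numbered pairs of phrenic and C3-C5 GFP-only arrays correlated above 0.1 (0.125 to 0.224), but so did the 4 differently numbered pairs within an array set (0.179 to 0.280), while the 8 pairs across sets gave -0.254 to -0.125. In both types one set holds replicates 1 and 4 and the other replicates 2 and 3, so number and set cannot be fully told apart there. Same-numbered pairs with LMC radial arrays gave -0.083 to 0.050. All 3 LMC radial arrays lie in the set of higher 25th percentile, which in the other types holds replicates 1 and 4. Their Actb 3′ minus 5′ differences were 1.01 to 1.12, against 1.71 to 2.15 in the arrays of the other set. Differences from LMC radial neurons thus cannot be fully told apart from array set and Actb difference.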

Additional observations from a re-analysis of the deposited data

Results flagged for a closer look

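Of 42 sets of 4 arrays (21 probe sets in phrenic and in C3-C5 GFP-only neurons), 2 held an array far from its replicates by Dixon's test, whose level flags about 5% of sets by chance. Nefh was at 8.38 in C3-C5 GFP-only replicate 1, against 7.63 to 7.68 in the other 3 arrays of the type, a gap of 0.929 of the whole range. Mapt probe set 1417885_at, which does not represent the gene, was at 6.26 in phrenic replicate 4, against 7.03 to 7.08 in the other phrenic arrays, a gap of 0.944 of the range. The 3 LMC radial arrays were too few for this test.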

How the results depend on the processing

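The count of members called was 0 in all 6 comparisons. It stayed 0 under every alternative except when C3-C5 GFP-only replicate 1 was left out, alone or, in an alternative chosen after seeing the data, together with phrenic replicate 4: then it was 1, Nefh, for phrenic against C3-C5 GFP-only and for phrenic against the mean of the other types. Leaving out each array in turn thus gave 0 to 1 in these comparisons and 0 in the other 4. With both arrays out Nefh differed by 0.64 (adjusted p = 0.0231). Across 675 values of the 9 genes under alternatives, 46 had the other sign than the main value, 35 of them for LMC radial against C3-C5 GFP-only, and none of the 46 passed. The 2 values of the 675 that did pass are those of Nefh without C3-C5 GFP-only replicate 1. Among other probe sets, Ina 1448991_a_at passed for phrenic against C3-C5 GFP-only with values below 5 raised to 5 (adjusted p = 0.0175) and with a trended robust prior (adjusted p = 0.0207), and Ina 1448992_at passed for phrenic against LMC radial with values below 5 raised to 5 (adjusted p = 0.0482). Ina 1448992_at, called for phrenic against C3-C5 GFP-only, passed in 15 of 24 alternatives, with differences of -0.58 to -0.34. With replicate number as a block the members called were again 0 in all 6 comparisons. The block ended the call on Ina 1448992_at for phrenic against C3-C5 GFP-only, and changed no other pairwise call on the member probe sets. With the array set as a block that call held (adjusted p = 0.0208). With the Actb difference as a covariate 0 members were called in each pairwise comparison, but differences moved for members other than Prph as well. For phrenic against LMC radial they became -0.024 for Nefm, -0.019 for Stmn2, -0.15 for Ina and 0.44 for Map1b. The number of all probe sets called moved more: 2979 for phrenic against LMC radial (778 in the 7 arrays of higher 25th percentile alone, 4266 without phrenic replicate 4), 882 for phrenic against C3-C5 GFP-only (112 with the mesenchyme covariate, 1240 without phrenic replicate 4) and 1694 for LMC radial against C3-C5 GFP-only (98 within those 7 arrays, 6685 with array weights). The cause of these moves was not tested.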
